A study of Mus musculus with 8 samples.

Results

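The genes described here are 38 components of the signalling cascade that T cells use downstream of their antigen receptor: 4 receptor-associated chains, 9 co-receptors and accessory surface proteins, 7 proximal kinases, 9 adaptors and regulators, and 9 effectors. The rule names each gene and uses no measured value, but the members were chosen with earlier results of these data known. Counts of members set beside shares of all genes below are therefore a description and not independent support. All 38 were found among the 22878 gene symbols of the deposited tables. All 38 also passed the filter on low counts that left 13619 genes for testing. Where a symbol had several transcripts, the one with the largest mean read count was taken. RNA was sequenced from mouse progenitors of innate lymphoid cells (ILCs), lymphocytes that lack rearranged antigen receptors, in 4 groups of 2 libraries each. All came from C57BL/6 bone marrow and were sorted as live, lineage-negative, CD127+ cells. The common lymphoid progenitor (CLP) was gated as Flt-3+, integrin α4β7-, Sca1+ and c-Kit+, and the common helper-like ILC progenitor (ChILP) as Flt-3-, integrin α4β7+, T1/ST2- and c-Kit+. The PD-1+ progenitor (ChILP gate with PD-1+ CCR6-), assigned by the labels to the non-LTi ILC lineages (LTi, lymphoid tissue inducer), and the CCR6+ progenitor (ChILP gate with PD-1- CCR6+), assigned to the LTi lineage, were subsets of that gate. Before sorting, the marrow for CLP and ChILP cells was depleted of lineage-positive cells, whereas for the PD-1+ and CCR6+ cells integrin α4β7+ cells were retained on a magnetic column with an antibody to that integrin; below, these are called the depleted and the captured libraries. Libraries were made from polyA RNA by Smart-seq2, a full-length cDNA method for small amounts of RNA. Nothing in the labels ties the replicates to different mice; the p-values therefore cover only the spread among these libraries, and that spread may be technical. As these are bulk samples, fewer cells of a type and less RNA per cell cannot be told apart.

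In T cells, the antigen receptor has no signalling domain of its own and passes its signal through the CD3 chains and CD247, whose tyrosine motifs are phosphorylated by the kinase Lck. Zap70, or its relative Syk, then binds these motifs and phosphorylates the adaptors Lat and Lcp2 (SLP-76), which assemble phospholipase C gamma and Vav1. From there the signal splits into a calcium branch ending in the NFAT factors, a Ras branch entered through Rasgrp1, and a protein kinase C theta branch that runs through Bcl10 and Malt1 to NF-κB. Innate lymphocytes can use much of the same machinery under other receptors.

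Between 7685188 and 13997897 reads were assigned to genes per library. The transcripts for the gated proteins followed the labels of the PD-1+ and CCR6+ groups with 1 exception. Pdcd1, which encodes PD-1, was at 181 and 36.3 RPKM (reads per kilobase of transcript, scaled to library size) in PD-1+ replicates 1 and 2 and at 0 and 1.102 RPKM in the CCR6+ libraries. Ccr6 was at 84.2 and 23.6 RPKM in the CCR6+ libraries, 0 in PD-1+ replicate 1 and 8.11 RPKM in the library labelled PD-1+ replicate 2. Across genes, PD-1+ replicate 2 was also nearer to CCR6+ replicate 2 (chi-square per gene 17.9) than to its own replicate (78.0). The other groups' replicates differed by 39.4 to 63.5. This measure is not scaled for read depth and grows with it. For PD-1+ replicate 2 the nearer library had more reads than its own replicate (11394107 against 10667762). PD-1+ replicate 1 had 75.0 against CCR6+ replicate 1, which had fewer reads (7875507) than PD-1+ replicate 2 (12153158). ChILP replicate 1 had 40.9 against CLP replicate 1 and 63.5 against its own replicate, again with fewer reads in the former (7685188 against 11100586). Whether such nearness was particular to PD-1+ replicate 2 is therefore not settled by these values. The PD-1+ against CCR6+ counts of members with an unadjusted p under 0.05, and the fold changes of those members, are given with and without PD-1+ replicate 2. The medians, the counts by library order and the other fold changes of that comparison include it. Of 17 gene symbols of antigen receptor chains searched, 0 were among the symbols of the deposited data, so the level of these chains could not be judged. Ptcra, the surrogate alpha chain of developing T cells, was present and had 0 reads in all 8 libraries (a count of 0 allows up to 3 reads per library).

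Most of the 38 genes were transcribed in each of the 4 groups, and unevenly so. At 1 RPKM or more in both libraries of a group stood 25 of the 38 genes in CLP, 31 in ChILP, 35 in PD-1+ and 36 in CCR6+ cells. These are 65.8%, 81.6%, 92.1% and 94.7% of the members, against 77.2%, 76.9%, 74.8% and 74.4% of all genes tested. In CLP the share of members was thus below that of all genes tested. At 10 RPKM or more the numbers were 12, 13, 13 and 14 (31.6%, 34.2%, 34.2% and 36.8% of the members), against 40.4%, 39.9%, 36.3% and 35.4% of all genes tested. The members with the highest mean in their role were Cd247, Ptprc (CD45, the phosphatase that keeps Lck active), Lck, Lat2 and Bcl10. Bcl10, the scaffold that links protein kinase C to Malt1, was at 31.2 and 26.9 RPKM in CLP, 38.1 and 29.0 in ChILP, 30.3 and 42.4 in PD-1+, with 31.7 and 44.9 in CCR6+. Its libraries overlapped in both comparisons. Vav1, the exchange factor that acts on Rac, ranged from 24.2 to 35.1 RPKM over the 8 libraries, Csk, which switches Lck off, from 30.5 to 63.1, and Nfatc3 from 5.31 to 7.01. Nfatc1, an end point of the calcium branch, ranged from 17.1 to 29.4 RPKM, whereas its relative Nfatc2 stayed between 0.626 and 2.64. The caspase-like protease Malt1 ranged from 2.26 to 7.27 RPKM. None of these 7 passed an unadjusted p of 0.05 in either comparison by edgeR's quasi-likelihood test.

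**Figure D1:**
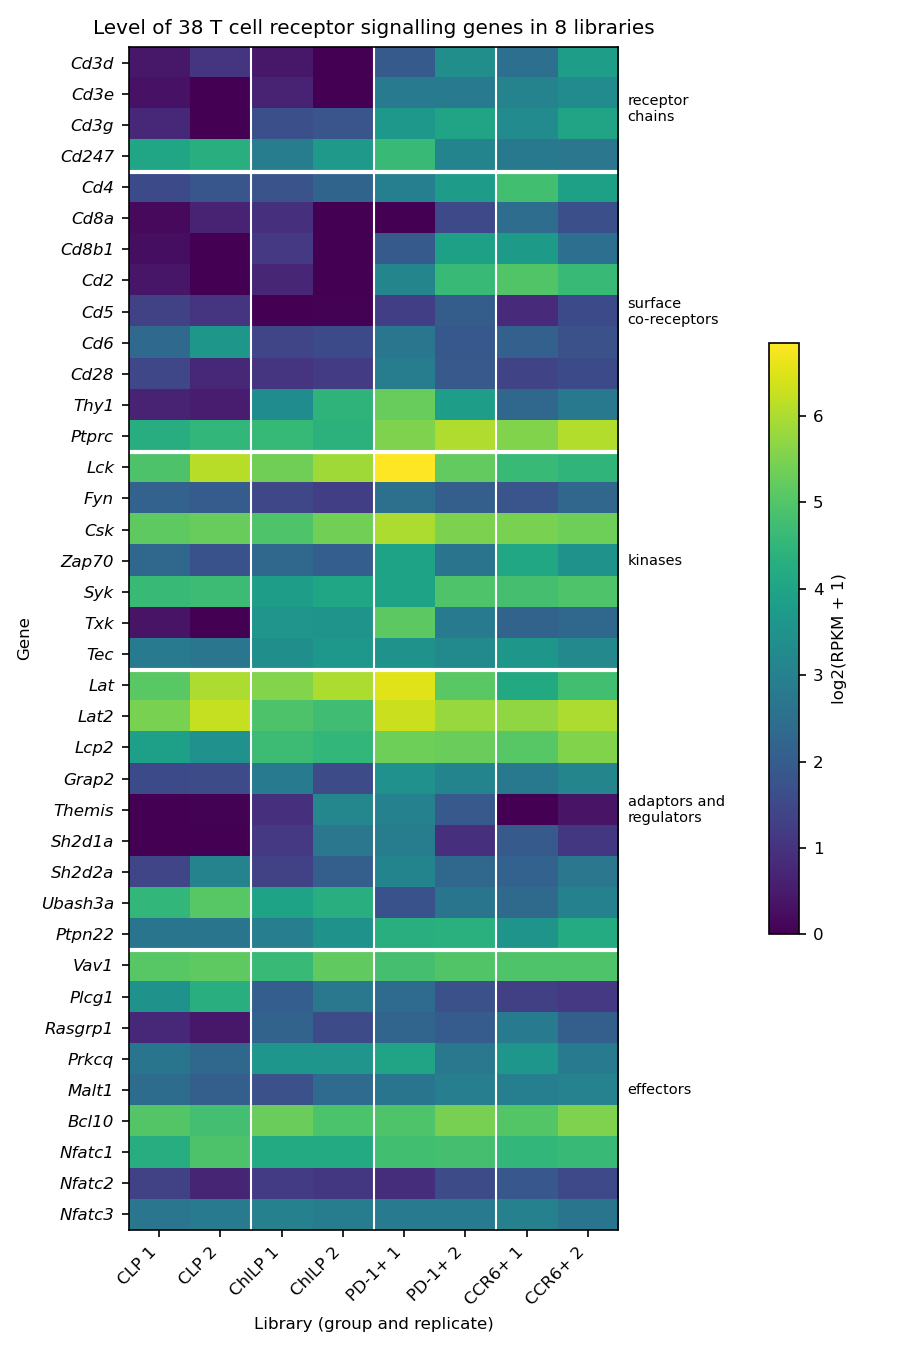
Heat map of log2(RPKM + 1) for the 38 genes (rows, by role) in the 8 libraries (columns), coloured by the scale at the side. Vav1, Bcl10 and Csk stand at an even level across the columns, whereas Cd3d, Cd3e and Cd2 stand near 0 in the CLP and ChILP columns and above it in the 4 captured libraries.

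Among the receptor-associated chains, the 3 CD3 genes were at or under 2.47 RPKM in every CLP and ChILP library, whereas Cd247 was at 6.40 RPKM or more by its transcript with the most reads, NM_001113391. The other 4 Cd247 transcripts were at 0.926 to 4.78 RPKM in these libraries, and the longest of them was under 2.47 RPKM in each, so this contrast holds for the transcript counted. Cd3e, encoding CD3 epsilon, had 0.260 and 0 RPKM in CLP, 0.610 and 0 in ChILP, 5.99 and 6.00 in PD-1+, with 7.36 and 8.93 in CCR6+ libraries. Cd3d, encoding CD3 delta, had 0.351 and 1.08 RPKM in CLP, 0.371 and 0 in ChILP, 2.85 and 9.39 in PD-1+, with 4.71 and 13.1 in CCR6+. Cd3g, encoding CD3 gamma, had 0.731 and 0 RPKM in CLP, 2.19 and 2.47 in ChILP, 11.5 and 14.9 in PD-1+, with 8.87 and 15.1 in CCR6+. All 4 captured libraries lay above all 4 lineage-depleted libraries for each of the 3 genes. Cd247, encoding the zeta chain that also signals for natural killer receptors, had 15.5 and 19.0 RPKM in CLP, 6.40 and 11.8 in ChILP, 23.9 and 7.59 in PD-1+, with 5.83 and 5.53 in CCR6+. Its highest library was PD-1+ replicate 1, and its 2 CLP libraries lay above both ChILP libraries.

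Several surface proteins showed the same division as the CD3 chains. Cd2, an adhesion receptor of T and natural killer cells, had 0.327 and 0 RPKM in CLP, 0.670 and 0 in ChILP, 7.70 and 23.8 in PD-1+, with 31.1 and 24.0 in CCR6+. Cd8b1, the beta chain of the CD8 co-receptor, had 0.198 and 0 RPKM in CLP, 1.20 and 0 in ChILP, 2.87 and 13.9 in PD-1+, with 12.3 and 4.70 in CCR6+. Ptprc had 18.3 and 22.2 RPKM in CLP, 23.2 and 20.0 in ChILP, 44.8 and 64.5 in PD-1+, with 45.8 and 66.1 in CCR6+. Cd8a, the alpha chain, was low throughout: it was listed at 0 in ChILP replicate 2 and PD-1+ replicate 1 and reached 4.42 RPKM in CCR6+ replicate 1. In all, 11 of the 38 genes lay higher in every captured library than in every depleted one (Cd3d, Cd3e, Cd3g, Cd4, Cd8b1, Cd2, Ptprc, Zap70, Lcp2, Ptpn22 and Malt1), against 9.05% of all genes tested. Only Ubash3a, a phosphatase-family protein that damps receptor signalling, lay below, against 22.5% of all genes. It ranged from 14.7 to 32.7 RPKM in the depleted and from 2.28 to 7.11 RPKM in the captured libraries. The enrichment route and the groups cannot be told apart here, so no test was made across it. Markers of other cells had the same division although the sort was lineage-negative. In the captured libraries 9 of 10 mature myeloid markers lay above all depleted libraries (summed level 16436 to 35541 against 1489 to 6989 RPKM), as did 7 of 9 erythroid markers (33177 to 48778 against 1171 to 7454 RPKM). So did 5 of 10 B cell markers (summed level 258 to 379 against 27.8 to 330 RPKM). Of these the mature B cell gene Ms4a1 was at 0 in CLP replicate 2 and ChILP replicate 2. Blnk, Vpreb3, Ebf1 and Igll1, of the same list, were instead lower in every captured library than in both CLP libraries. Above all depleted libraries too were 4 of 10 natural killer and ILC1 markers and 4 of 10 plasmacytoid dendritic cell markers, with 1 of the latter below. The part of such cells in the levels of the CD3 chains, Cd2 and the co-receptors was not tested.

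**Figure D2:**
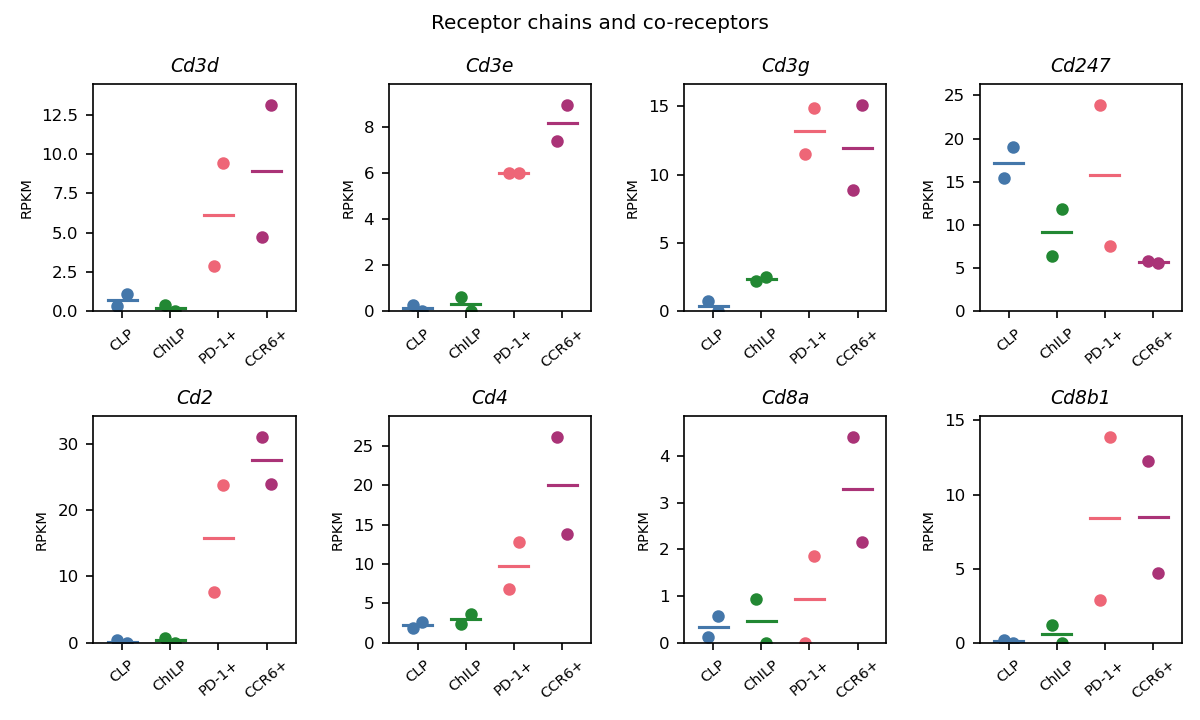
RPKM of 4 receptor-associated chains (upper row) and 4 surface proteins (lower row), with 1 point per library and a line at the mean of each group's 2 libraries; each panel has its own axis from 0. Cd3d, Cd3e, Cd3g, Cd2 and Cd8b1 lie higher in every PD-1+ and CCR6+ library than in any CLP or ChILP library, and Cd247 does not share that division.

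The first comparison asked how the cascade differed between the ILC progenitor and the lymphoid progenitor above it. Thy1, Txk, Themis, Sh2d1a, Lcp2, Rasgrp1, Prkcq and Tec stood higher in ChILP cells, and Cd5, Cd6, Lat2 and Plcg1 lower, before adjustment for the number of genes tested. The sizes ran from 1.81-fold in mean RPKM for the kinase Tec to Themis and Sh2d1a, which had 2 and 0 reads in CLP. At an unadjusted p under 0.05 by edgeR's quasi-likelihood test on counts stood 12 of 38 members, against 5.82% of all genes tested. Of these 8 were higher, against 2.79% of all genes tested, and 4 were lower, against 3.03%. After Benjamini-Hochberg adjustment over all genes no member passed 0.05 by edgeR, where 0.022% of all genes did. By DESeq2 8 members passed (Cd5, Thy1, Txk, Lat2, Lcp2, Themis, Sh2d1a and Rasgrp1), where 1.93% of all genes did, and by limma on log2(RPKM + 1) 1 did, Thy1, where 0.450% of all genes did. The median log2 fold change of the 38 was 0.24, with 24 of them positive, against 0.05 for all genes tested. Counted by libraries alone, both ChILP libraries lay above both CLP libraries for 12 members (17.0% of all genes) and below for 9 (18.6%).

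**Figure D3:**
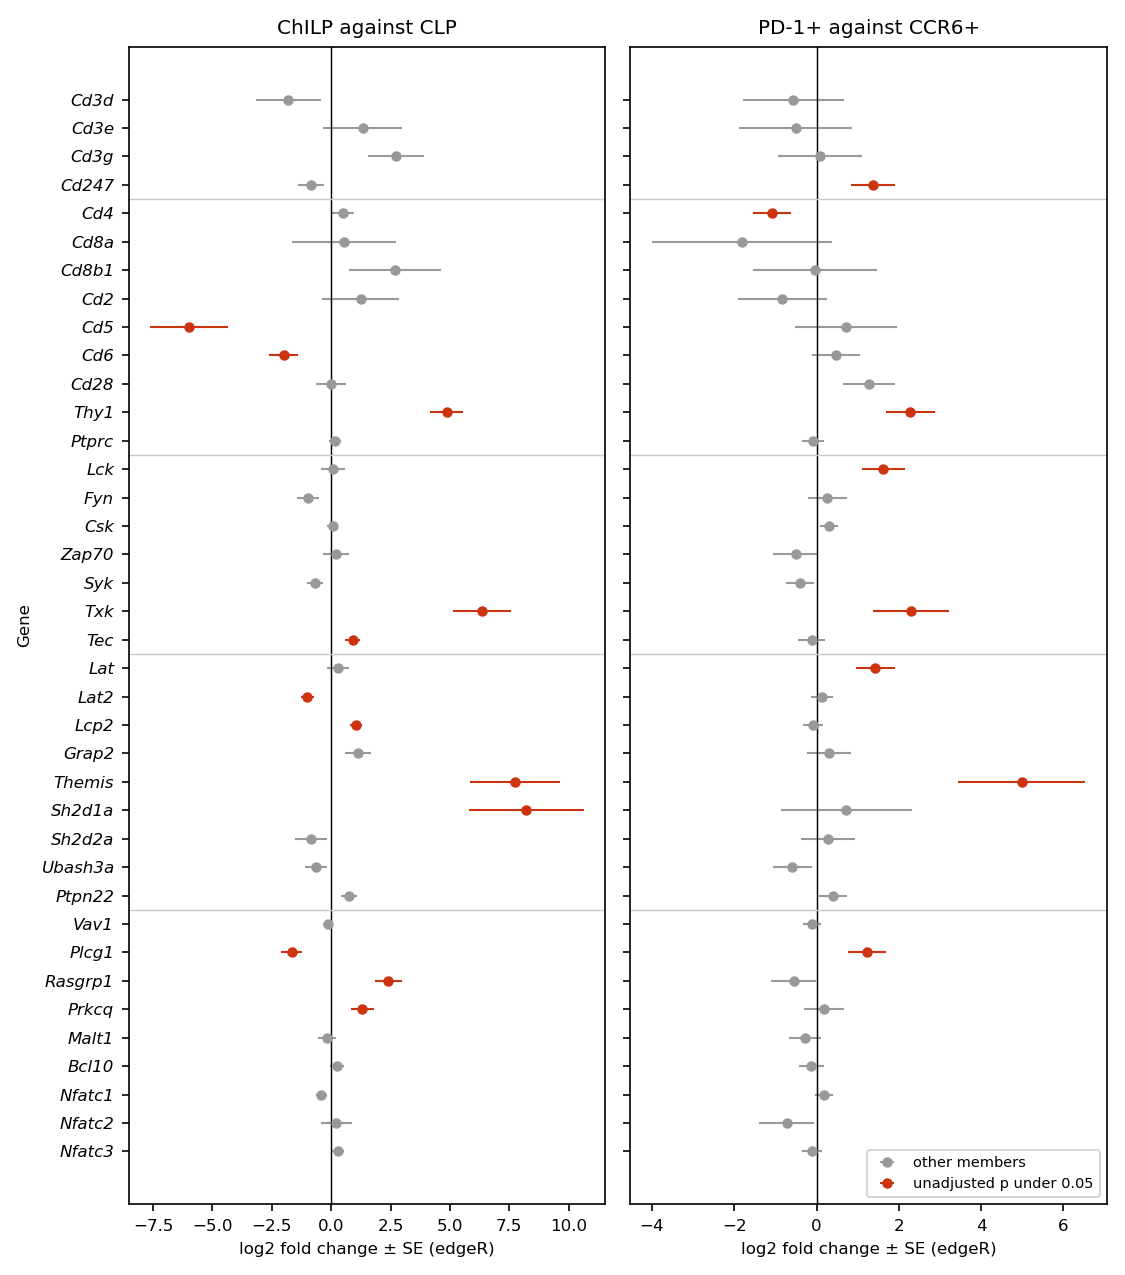
Log2 fold change with its standard error (bars) for the 38 genes by role, from edgeR, for ChILP against CLP and for PD-1+ against CCR6+; red marks an unadjusted p under 0.05, and the vertical line is no difference. In the first comparison 8 genes are red to the right of the line and 4 to the left; in the second 7 are red to the right and 1, Cd4, to the left.

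At the surface, the difference in Thy1 was the clearest. Thy1 (transcript NM_009382), a small glycoprotein linked to the membrane by a lipid anchor and widely used to identify T cells and ILCs, had 0.593 and 0.473 RPKM in CLP against 8.99 and 21.1 in ChILP. The groups were far apart, and the log2 fold change was 4.87 (SE 0.70, edgeR adjusted p = 0.0812). Cd5 and Cd6, scavenger-receptor family proteins that tune receptor signalling, differed the other way. Cd5 had 64 reads in the CLP libraries (1.49 and 1.02 RPKM) and 1 read in the ChILP libraries (0 and 0.031 RPKM), a ratio of 85.1 with an exact 95% counting interval of 14.7 to 3414 (edgeR adjusted p = 0.391). Cd6 had 4.04 and 11.4 RPKM in CLP and 1.70 and 1.92 in ChILP, a log2 fold change of −2.01 (SE 0.61, edgeR adjusted p = 0.498). Cd28, the costimulatory receptor, did not differ detectably (1.75 and 0.744 against 1.08 and 1.34 RPKM; log2 fold change −0.02, SE 0.63). None of the 4 receptor-associated chains passed; Cd3g came closest to that threshold, at a log2 fold change of 2.74 (SE 1.19, edgeR adjusted p = 0.861) on 8 and 0 reads in CLP and 41 and 39 in ChILP.

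Of the 7 kinases, those of the Tec family, Txk and Tec, passed an unadjusted p of 0.05. Txk (also called Rlk), which activates phospholipase C gamma in T cells, had 0.290 and 0 RPKM in CLP (7 reads) and 10.97 and 10.7 in ChILP, with a log2 fold change of 6.36 (SE 1.22, edgeR adjusted p = 0.137); all 7 reads lay in CLP replicate 1. Tec itself had 6.26 and 5.40 RPKM in CLP and 9.65 and 11.5 in ChILP (log2 fold change 0.90, SE 0.33, edgeR adjusted p = 0.705). Both ChILP libraries stood above both CLP libraries for each of these kinases. Lck had 29.4 and 68.4 RPKM in CLP and 40.3 and 57.2 in ChILP, so the groups overlapped (log2 fold change 0.08, SE 0.51). Fyn, the other Src kinase of the receptor complex, had 3.42 and 3.01 RPKM in CLP and 1.73 and 1.42 in ChILP (log2 fold change −0.98, SE 0.48, edgeR adjusted p = 0.922). Zap70 had 3.94 and 2.29 RPKM in CLP and 3.89 and 3.12 in ChILP, while Syk had 23.4 and 25.1 RPKM in CLP and 13.3 and 15.6 in ChILP (log2 fold change −0.69, SE 0.34, edgeR adjusted p = 0.923).

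The adaptors separated in both directions. Lcp2 had 13.5 and 9.98 RPKM in CLP and 25.1 and 22.1 in ChILP, a log2 fold change of 1.05 (SE 0.25, edgeR adjusted p = 0.292). Themis, an adaptor needed for thymocyte selection, had 2 reads in CLP (0 and 0.034 RPKM) and 553 in ChILP (0.880 and 7.96 RPKM), a ratio of 208 with an exact 95% counting interval of 57.3 to 1721 (edgeR adjusted p = 0.295). The 2 ChILP libraries themselves differed widely, with the higher value in replicate 2. Sh2d1a (SAP), the small adaptor that links SLAM-family receptors to Fyn, had 0 reads in CLP and 18 and 70 reads in ChILP (1.20 and 5.54 RPKM). Against 3 reads over the CLP group this was at least 22.1-fold higher (edgeR adjusted p = 0.516). Lat2 (NTAL), a Lat relative of B and myeloid cells, had 43.3 and 74.5 RPKM in CLP and 29.4 and 26.1 in ChILP, a log2 fold change of −1.02 (SE 0.27, edgeR adjusted p = 0.371). Lat had 32.9 and 63.0 RPKM in CLP and 46.6 and 63.4 in ChILP, so its groups overlapped (log2 fold change 0.27, SE 0.46). The remaining adaptors did not pass: Grap2 (Gads), which joins Lat to Lcp2, had 1.92 and 1.97 against 6.13 and 2.02 RPKM, and the phosphatase Ptpn22 had 5.28 and 5.34 against 6.66 and 10.5 RPKM.

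Among the effectors, the phospholipase and the Ras exchange factor differed in opposite directions. Plcg1, the phospholipase C gamma isoform of T cells, had 10.5 and 19.0 RPKM in CLP and 3.11 and 5.73 in ChILP, a log2 fold change of −1.67 (SE 0.46, edgeR adjusted p = 0.398). Rasgrp1 had 0.714 and 0.361 RPKM in CLP and 3.57 and 1.99 in ChILP, a log2 fold change of 2.41 (SE 0.58, edgeR adjusted p = 0.292). Prkcq, protein kinase C theta, had 5.30 and 3.92 RPKM in CLP and 11.2 and 10.9 in ChILP, a log2 fold change of 1.30 (SE 0.49, edgeR adjusted p = 0.748). In none of these 3 did the groups overlap. The 6 others did not pass.

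Of 74 further pathway genes tested, 8 were higher in ChILP (2.79% of all genes tested were) and 4 lower (3.03%) at an unadjusted p under 0.05, from a list chosen with earlier results of these data known. The adaptor Skap1 was among the higher ones (0.341 and 0.406 RPKM in CLP, 7.35 and 15.0 in ChILP; edgeR adjusted p = 0.0812). So was Trat1, a transmembrane adaptor that stabilises the receptor complex (1.503 and 1.40 against 21.8 and 35.2 RPKM; edgeR adjusted p = 0.435). Sla, an adaptor that promotes receptor degradation (35.0 and 30.6 against 64.3 and 64.4 RPKM), and Ubash3b (8.16 and 6.17 against 27.7 and 11.9 RPKM) were also higher. The lower ones included the transmembrane adaptors Lax1 (26.9 and 46.5 against 8.57 and 12.6 RPKM) and Pag1 (5.78 and 5.29 against 2.77 and 2.39 RPKM). Plcg2, the phospholipase C gamma isoform of B and myeloid cells, was at 47.2 and 66.6 RPKM in CLP and 25.9 and 20.7 in ChILP (log2 fold change −1.22, SE 0.28, edgeR adjusted p = 0.270). With Lat2, Plcg1, Lax1 and Plcg2, 9 of 10 B cell markers were lower in both ChILP libraries, against 18.6% of all genes tested. Their summed level was 273 and 330 RPKM in CLP and 100.005 and 27.8 in ChILP, and Ebf1 and Pax5 were at 0 in ChILP replicate 2. Lower in both ChILP libraries too were 7 of 10 plasmacytoid dendritic cell markers (summed level 872 and 1298 RPKM in CLP, 429 and 434 in ChILP, none at 0), of which Cox6a2 fell from 103 and 162 to 7.15 and 11.5 RPKM (edgeR adjusted p = 0.0495). With Thy1, Txk and Themis, 5 of 10 natural killer and ILC1 markers were higher in both ChILP libraries and 3 were lower, against 17.0% and 18.6% of all genes tested. Their summed level was 230 and 304 RPKM in CLP and 324 and 316 in ChILP. Most of that sum was Nkg7 (216 and 295 RPKM in CLP, 306 and 299 in ChILP), and Prf1, at 3.73 and 1.06 RPKM in CLP, was at 0 in both ChILP libraries, as was Klra8. The part of such cells in these differences was not tested. Without CLP replicate 2, only Cd5 remained among the lower 4, and Cd6 and Lat2 moved to log2 fold changes of −1.17 and −0.66. Prkcq lost its unadjusted p under 0.05 without CLP replicate 2 and without either ChILP library, and Tec without CLP replicate 2 or ChILP replicate 2, whereas Thy1, Txk, Themis, Sh2d1a, Lcp2 and Rasgrp1 kept it with each of the 4 libraries left out. Over these 4 fits the log2 fold change of Thy1 ran from 4.12 (without ChILP replicate 2) to 5.36 (without ChILP replicate 1), and that of Rasgrp1 from 1.93 (without ChILP replicate 1) to 3.06 (without CLP replicate 1). For Themis it was 5.44 without ChILP replicate 2 and for Txk 5.18 without CLP replicate 2, whereas no Themis read remained in CLP without CLP replicate 2 and no Txk read without CLP replicate 1.

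The second comparison set the PD-1+ progenitor against the CCR6+ progenitor, which share their enrichment route. Cd247, Lck, Lat, Txk, Themis, Plcg1 and Thy1 stood higher in PD-1+ cells, at least 1 gene of each role, and Cd4 lower, before adjustment for the number of genes tested. The difference was 2.77-fold in mean RPKM for Cd247, 3.30-fold for Lck and 2.86-fold for Lat. At an unadjusted p under 0.05 by edgeR's quasi-likelihood test stood 8 of 38 members, against 5.88% of all genes tested. Of these 7 were higher, against 4.08%, and 1 was lower, against 1.81%. No member passed after Benjamini-Hochberg adjustment by edgeR, nor did any other gene (0.0% of those tested), and by DESeq2 1 member did, Themis (adjusted p = 0.0353), where 0.962% of all genes did. The median log2 fold change of the members was 0.11, with 20 of 38 positive, against 0.01 for all genes tested. By libraries alone, both PD-1+ libraries lay above both CCR6+ libraries for 11 members (19.0% of all genes) and below for 5 (14.2%).

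These 7 differences rested largely on PD-1+ replicate 1. Without that library 2 members were higher, Thy1 and Themis, and none was lower, where 2.92% of all genes tested had an unadjusted p under 0.05 in either direction. Without PD-1+ replicate 2, the library with Ccr6 reads, 8 members were higher (Cd28 joined the 7) and 4 lower (Cd4, Cd8a, Syk and Ubash3a), where 15.1% of all genes passed. Without CCR6+ replicate 1 there were 3 higher (Thy1, Lck and Themis) and none lower, against 3.17% of all genes, and without CCR6+ replicate 2 there were 3 higher (Thy1, Lat and Themis) and 1 lower (Cd4), against 8.48%. With each single library left out, then, Thy1 and Themis stayed among the higher members.

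The promoters shown are those of the members higher in PD-1+ cells at an unadjusted p under 0.05 by edgeR, differences that rested largely on PD-1+ replicate 1. Whether these genes are regulated together was not tested. Promoter windows were available for 27 of the 38 genes and for 6 of these 7, Thy1 not being among them. Each runs from 250 bases before to 50 bases after the first transcription start listed for the gene by RefSeq (GRCm38.p6), which is not the mm9 build of the expression files and may not be the start of the transcript counted. They lie at chr1:165788431-165788730 (plus strand) for Cd247, chr4:129573592-129573891 (minus) for Lck, chr5:72752728-72753027 (minus) for Txk, chr7:126369519-126369818 (minus) for Lat, chr10:28668110-28668409 (plus) for Themis and chr2:160731060-160731359 (plus) for Plcg1. They are written 5′ to 3′ on the gene's strand. Capitals mark the letters of 4 motifs of lymphoid transcription factor families on either strand: AGGAAG for ETS factors, TGTGGT for RUNX, GATAA for GATA and CTTTGAT for TCF.
Cd247: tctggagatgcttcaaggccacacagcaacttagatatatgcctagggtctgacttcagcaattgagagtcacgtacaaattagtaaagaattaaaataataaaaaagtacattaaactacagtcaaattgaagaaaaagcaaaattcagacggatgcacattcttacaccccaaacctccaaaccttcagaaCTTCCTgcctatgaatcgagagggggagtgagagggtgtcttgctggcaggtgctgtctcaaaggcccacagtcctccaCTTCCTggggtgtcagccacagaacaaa
Lck: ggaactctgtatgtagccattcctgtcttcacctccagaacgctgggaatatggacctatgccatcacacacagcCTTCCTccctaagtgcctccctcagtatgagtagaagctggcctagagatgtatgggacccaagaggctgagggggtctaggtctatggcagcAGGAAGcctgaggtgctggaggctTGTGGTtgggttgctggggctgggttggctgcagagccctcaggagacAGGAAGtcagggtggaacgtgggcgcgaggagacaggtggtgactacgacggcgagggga
Txk: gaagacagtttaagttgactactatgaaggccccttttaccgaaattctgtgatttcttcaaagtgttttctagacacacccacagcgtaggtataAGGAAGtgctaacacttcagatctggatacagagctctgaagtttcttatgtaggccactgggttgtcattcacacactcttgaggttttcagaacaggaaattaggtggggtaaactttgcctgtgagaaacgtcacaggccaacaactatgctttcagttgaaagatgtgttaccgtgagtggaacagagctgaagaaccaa
Lat: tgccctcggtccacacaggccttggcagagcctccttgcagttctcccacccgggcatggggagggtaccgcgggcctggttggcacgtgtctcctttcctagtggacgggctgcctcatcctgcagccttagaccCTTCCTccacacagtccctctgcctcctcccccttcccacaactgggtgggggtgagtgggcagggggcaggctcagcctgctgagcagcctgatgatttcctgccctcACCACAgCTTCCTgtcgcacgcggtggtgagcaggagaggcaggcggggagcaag
Themis: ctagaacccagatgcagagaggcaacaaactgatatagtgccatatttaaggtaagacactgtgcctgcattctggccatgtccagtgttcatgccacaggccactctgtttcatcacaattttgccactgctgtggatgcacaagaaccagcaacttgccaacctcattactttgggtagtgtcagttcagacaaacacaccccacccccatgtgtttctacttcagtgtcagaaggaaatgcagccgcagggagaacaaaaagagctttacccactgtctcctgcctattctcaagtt
Plcg1: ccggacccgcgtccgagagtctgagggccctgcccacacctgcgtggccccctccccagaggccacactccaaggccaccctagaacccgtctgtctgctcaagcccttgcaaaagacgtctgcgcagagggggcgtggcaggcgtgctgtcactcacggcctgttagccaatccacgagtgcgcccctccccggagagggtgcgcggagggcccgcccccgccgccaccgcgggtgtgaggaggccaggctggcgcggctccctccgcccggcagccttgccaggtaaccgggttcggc

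In these windows the ETS letters had 3 matches in Lck, 2 in Lat, 2 in Cd247 and 1 in Txk, and not in Themis or Plcg1. The RUNX letters had 1 match in Lck and 1 in Lat. The GATA and TCF letters were in none of the 6. Of all 32851 windows in the table, 35.4% held the ETS letters, 16.8% the RUNX letters, 25.4% the GATA letters and 3.73% the TCF letters. Of the 38 windows of the 27 matched members, 24 held the ETS letters, 5 the RUNX letters, 10 the GATA letters and 2 the TCF letters. These matches are a description of the sequence and not of binding.

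Among the surface genes and receptor-associated chains, Thy1 and Cd247 stood higher and Cd4 lower in PD-1+ cells. Thy1 was at 37.0 and 13.3 RPKM in PD-1+ against 3.94 and 5.77 in CCR6+, without overlap (log2 fold change 2.28, SE 0.59, edgeR adjusted p = 0.690). It was 1.44 without PD-1+ replicate 1 and 2.79 without PD-1+ replicate 2. Cd247, whose values are given above, had a log2 fold change of 1.37 (SE 0.54, edgeR adjusted p = 0.824), or 0.40 without PD-1+ replicate 1 and 1.94 without PD-1+ replicate 2. The Cd4 co-receptor, which also marks LTi cells, had 6.82 and 12.7 RPKM in PD-1+ against 26.2 and 13.9 in CCR6+ (1.90 and 2.58 in CLP, 2.37 and 3.64 in ChILP), a log2 fold change of −1.08 (SE 0.47, edgeR adjusted p = 0.840). The 2 replicates numbered 2 were nearly level, and without CCR6+ replicate 1 the value was −0.53, against −0.67 without PD-1+ replicate 1 and −1.69 without PD-1+ replicate 2. The CD3 genes did not differ detectably, with log2 fold changes of −0.56 (SE 1.23) for Cd3d, −0.50 (SE 1.38) for Cd3e and 0.09 (SE 1.01) for Cd3g. Cd28 had 6.34 and 2.78 RPKM in PD-1+ against 1.65 and 1.91 in CCR6+ (log2 fold change 1.27, SE 0.63, edgeR adjusted p = 0.850).

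The kinases Lck and Txk both had their highest level of the 8 libraries in PD-1+ replicate 1. Lck had 114 and 36.2 RPKM in PD-1+ against 24.1 and 21.5 in CCR6+, a log2 fold change of 1.63 (SE 0.52, edgeR adjusted p = 0.769), or 0.65 without PD-1+ replicate 1 and 2.19 without PD-1+ replicate 2. Txk had 33.6 and 6.00 RPKM in PD-1+ against 3.57 and 3.95 in CCR6+, a log2 fold change of 2.29 (SE 0.92, edgeR adjusted p = 0.826), or 0.66 and 3.03 in the same order. Neither gene overlapped between the groups. Fyn had 4.73 and 3.22 RPKM in PD-1+ against 2.52 and 3.78 in CCR6+, and Tec had 10.4 and 8.504 against 11.3 and 8.29 RPKM; both overlapped.

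**Figure D4:**
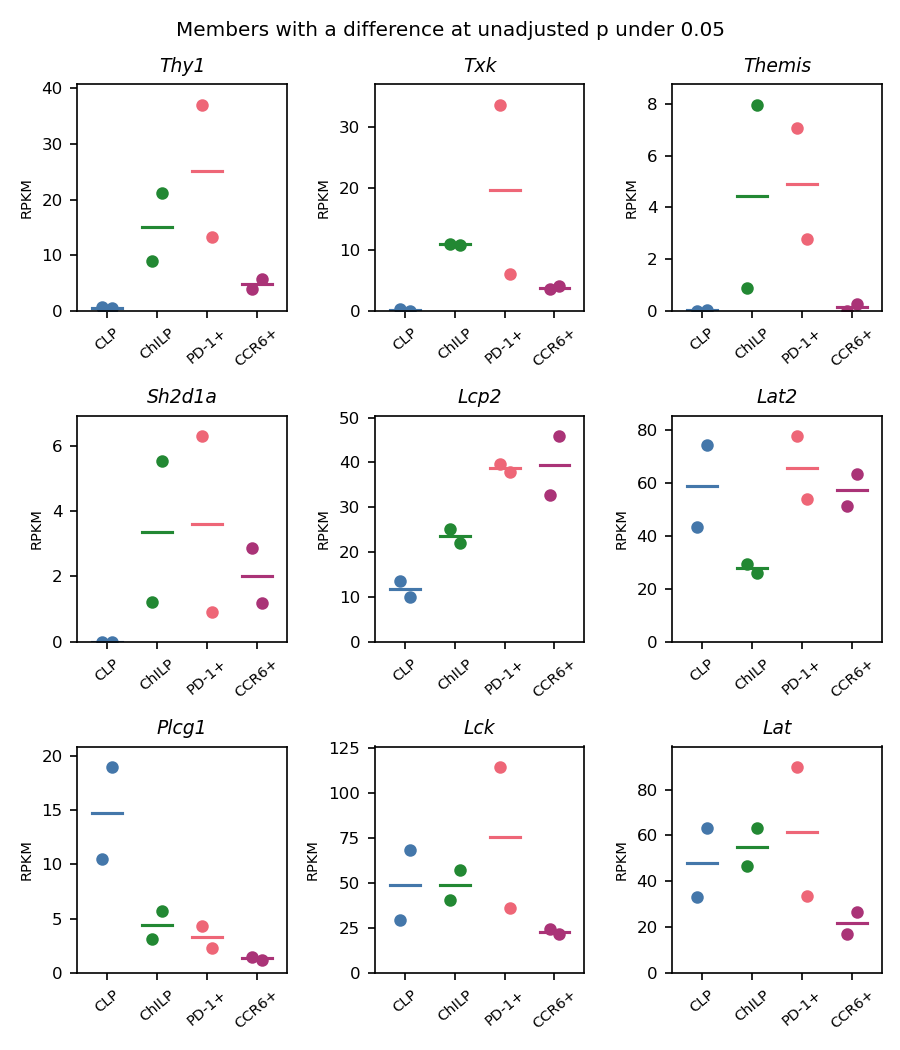
RPKM of 9 members in the 4 groups, with 1 point per library and a line at the mean of each group's 2 libraries; each panel has its own axis from 0. Thy1 and Txk stand above the CLP level in both ChILP libraries, and PD-1+ replicate 1 is the highest of the 8 libraries for Thy1, Txk, Lck, Lat, Lat2 and Sh2d1a.

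Lat and Themis were the adaptors that stood higher. Lat had 89.9 and 33.4 RPKM in PD-1+ against 16.8 and 26.3 in CCR6+, a log2 fold change of 1.43 (SE 0.48, edgeR adjusted p = 0.793), or 0.62 without PD-1+ replicate 1 and 1.93 without PD-1+ replicate 2. Themis had 7.05 and 2.78 RPKM in PD-1+, and in CCR6+ 0 in replicate 1 and 0.276 in replicate 2, where its 16 reads all lay (log2 fold change 4.99, SE 1.55, edgeR adjusted p = 0.744). It was 4.24 without PD-1+ replicate 1 and 5.45 without PD-1+ replicate 2, and without CCR6+ replicate 2 no read remained in that group. Lat2 had 77.8 and 54.0 RPKM in PD-1+ against 51.5 and 63.4 in CCR6+, and Lcp2 had 39.7 and 37.8 against 32.7 and 45.9; both overlapped. Sh2d1a, which was absent from the CLP reads, had 6.30 and 0.902 RPKM in PD-1+ against 2.86 and 1.17 in CCR6+, and Sh2d2a, an adaptor that binds Lck, ranged from 1.56 to 7.58 RPKM over all libraries. Among the effectors Plcg1 had 4.30 and 2.23 RPKM in PD-1+ against 1.46 and 1.19 in CCR6+, a log2 fold change of 1.22 (SE 0.46, edgeR adjusted p = 0.815), or 0.74 without PD-1+ replicate 1 and 1.57 without PD-1+ replicate 2. Rasgrp1 had 3.75 and 2.97 against 6.18 and 3.20 RPKM and Prkcq 15.0 and 5.74 against 11.1 and 6.03 RPKM, both with overlap.

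Of the 74 further pathway genes, 6 were higher in PD-1+ cells (4.08% of all genes tested were) and 1 lower (1.81%) at an unadjusted p under 0.05. Trat1 had 57.3 and 12.2 RPKM in PD-1+ against 0 and 1.91 in CCR6+ (log2 fold change 5.01, SE 1.29, edgeR adjusted p = 0.690). Skap1 was also higher (26.8 and 8.07 against 4.31 and 5.39 RPKM; edgeR adjusted p = 0.793). Dok2, an adaptor that recruits a Ras inhibitor, had 165 and 53.4 against 21.2 and 41.9 RPKM (edgeR adjusted p = 0.729), and Stim1, the calcium sensor of the endoplasmic reticulum, 34.2 and 28.5 against 18.7 and 19.5 RPKM (edgeR adjusted p = 0.729). Grap, a Grb2-like adaptor, was the lower one (9.94 and 18.6 against 31.8 and 32.7 RPKM; edgeR adjusted p = 0.771). With the higher members, 4 of 10 natural killer and ILC1 markers lay higher in both PD-1+ libraries and 2 lower, against 19.0% and 14.2% of all genes tested. Their summed level was 375 and 189 RPKM against 141 and 147, with none at 0 in these 4 libraries. Most of that sum was Nkg7 (303 and 145 against 87.9 and 104 RPKM). Erythroid markers stood the other way, 8 of 9 being lower in both PD-1+ libraries (33177 and 38337 against 48778 and 39071 RPKM), as did 5 of 10 B cell markers (258 and 322 against 379 and 373 RPKM). Their part in the differences was not tested.

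**Figure D5:**
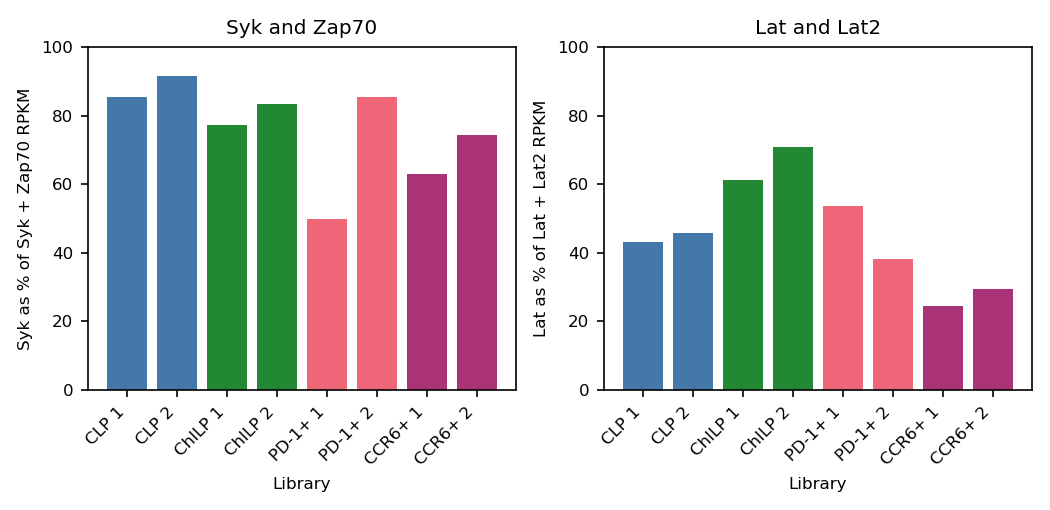
Bars give, for each of the 8 libraries, Syk as a percentage of the summed RPKM of Syk and Zap70 (left) and Lat as a percentage of the summed RPKM of Lat and Lat2 (right), both axes from 0 to 100%. Syk holds 50.0% or more in each library, and Lat is highest against Lat2 in the 2 ChILP libraries and lowest in the 2 CCR6+ libraries.

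RPKM allows the paired kinases and adaptors to be compared per length. Syk made up 85.6% and 91.6% of the summed Syk and Zap70 RPKM in CLP, 77.4% and 83.4% in ChILP, 50.0% and 85.3% in PD-1+, with 63.0% and 74.3% in CCR6+. The PD-1+ pair enclosed both CCR6+ and both ChILP values. Syk was at least level with Zap70 in every library, and Zap70 itself was at 14.7 and 5.25 RPKM in PD-1+ against 16.1 and 10.5 in CCR6+. Syk was at 14.7 and 30.4 RPKM in PD-1+ against 27.4 and 30.4 in CCR6+, so the library in which both kinases were level was PD-1+ replicate 1, and the one in which Syk led most among the captured was PD-1+ replicate 2. Lat made up 43.2% and 45.8% of the summed Lat and Lat2 RPKM in CLP, 61.3% and 70.9% in ChILP, 53.6% and 38.2% in PD-1+, with 24.6% and 29.3% in CCR6+. The share did not overlap between ChILP and CLP or between PD-1+ and CCR6+, and it was not tested.

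Thy1, Txk and Themis were the 3 members higher at an unadjusted p under 0.05 in both comparisons, against 0.551% of all genes tested. Of the further pathway genes Skap1, Trat1 and Stim1 were among those that did the same. The comparisons share no library, but both came from 1 fit with a shared estimate of each gene's spread, so they are not independent. Plcg1 was lower in ChILP than in CLP and higher in PD-1+ than in CCR6+, with its highest values in CLP. In the second comparison Txk lost its unadjusted p under 0.05 without PD-1+ replicate 1, without either CCR6+ library, and by limma with a pseudocount of 0.1.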

How the data were processed

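Expression was measured by RNA-seq in 8 mouse libraries, 2 in each of 4 sorted groups taken from the labels. The authors deposited, per the file headers and labels, read counts and RPKM for 29257 transcripts per library; CASAVA 1.8.4, Bowtie2 2.2.2 and the mm9 build appear in the submitters' processing notes, without roles. The counter, strand setting and annotation release were not given in the sources used here. The deposited RPKM equal the counts divided by transcript length and by 1 total per library. That total was not the sum of counts over transcripts (10700344 against 10535060 in CLP replicate 1, 14634409 against 15851490 in CLP replicate 2). Reads shared between transcripts of a gene could be counted for each, so 1 transcript per symbol was kept, the one with the largest mean count.

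Counts of all genes were fitted in edgeR 4.0.16 (R 4.3.3; TMM, robust quasi-likelihood test, two-sided, genes kept by filterByExpr at a minimum count of 10, all 4 groups in 1 fit with 4 residual degrees of freedom), with Benjamini-Hochberg adjustment over 13619 genes and a threshold of 0.05. The common biological coefficient of variation was 0.526. The script was tested on simulated counts. Alternatives were DESeq2 1.42.0, limma 3.58.1 on log2(RPKM + 1) and log2(RPKM + 0.1) for genes with 1 RPKM in 2 libraries, other filters, DESeq2 size factors, the 4 compared libraries alone, the replicate number as a block, the longest transcript, and each library left out. Counting intervals are exact and cover counting error only. Members and lists were chosen with earlier results of these data known. Values in every library are given for members with an unadjusted p under 0.05 in either comparison, the CD3 and CD247 chains, Lck, Fyn, Zap70, Syk, Lat, Lat2 and the highest member of each role; further pathway genes are named where the higher group averaged 5 RPKM or more, at most 8 per comparison by smallest p; 1 such gene is not reported here. Depleted and captured libraries were not tested against each other. Gene models are those of the deposited files; promoter sequences are from RefSeq.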

Additional observations from a re-analysis of the deposited data

How the results depend on the processing

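No member with an unadjusted p under 0.05 changed direction under any alternative run. In ChILP against CLP, edgeR called 0 members after adjustment; DESeq2 called 8 (1.93% of all genes), limma 1 with a pseudocount of 1 (0.450%) and 2 with 0.1 (0.376%), the fit without a filter on low counts 1 (0.393%), the fit of the 4 libraries alone 1 (0.459%), and leaving out 1 library 0 to 1. Members lower at an unadjusted p under 0.05 numbered 4, and 1 to 6 with 1 library left out, the 1 without CLP replicate 2. In PD-1+ against CCR6+, DESeq2 called 1 after adjustment (0.962% of all genes). Members higher at an unadjusted p under 0.05 by edgeR numbered 7 (4.08% of all genes tested), and their fold changes without each PD-1+ library are given above. Cd4 was the 1 lower member (1.81% of all genes tested). None was lower with limma at a pseudocount of 0.1, with the 4 libraries alone or with the longest transcripts. With 1 library left out, the log2 fold change of Cd4 ran from −1.69 to −0.53. For the members with an unadjusted p under 0.05, 8 of the alternative values lost it in the first comparison against 146 that did not, and 27 against 77 in the second. With the longest transcript Cd247 had a log2 fold change of 1.66 in PD-1+ against CCR6+ and lost its unadjusted p under 0.05 by edgeR.

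Over all genes, same-numbered deviations correlated at 0.0940 between CLP and ChILP and at 0.0796 between PD-1+ and CCR6+. The mature myeloid sum was higher in replicate 1 of CLP and ChILP (5509 and 6989 against 1489 and 1993 RPKM). It was higher in replicate 2 of PD-1+ and CCR6+ (33056 and 35541 against 16436 and 22303 RPKM). The erythroid sum moved together in CLP and ChILP but not in PD-1+ and CCR6+. Whether the replicate numbers pair the libraries was therefore not settled. With the replicate number as a block, 8 members were higher and 4 lower in ChILP at an unadjusted p under 0.05 by edgeR. Of all genes tested, 5.07% passed in either direction. In PD-1+ 5 were higher (without Cd247 and Txk) and 0 lower, where 4.78% of all genes passed in either direction. After adjustment 0 members passed in either comparison by edgeR, as did 0.0% of all genes.

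Depth limits the genes with few reads, such as Cd3d, Cd3e, Cd8a and Cd8b1 in CLP and ChILP, where a library held few reads or none; a p that misses the threshold does not show equal levels.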

Other observations

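Fcer1g and Tyrobp, adaptors with the tyrosine motif of the CD3 chains, stood above Cd3d, Cd3e and Cd3g in each of the 8 libraries. Fcer1g, the common gamma chain of Fc receptors, was at 216 and 159 RPKM in CLP, 328 and 292 in ChILP, 788 and 1095 in PD-1+, with 880 and 1190 in CCR6+. Tyrobp (DAP12), the adaptor of activating natural killer and myeloid receptors, was at 329 and 230 RPKM in CLP, 416 and 416 in ChILP, 965 and 1388 in PD-1+, with 1194 and 1427 in CCR6+. Hcst (DAP10), which signals through another motif, ranged from 35.6 to 93.6 RPKM. The mature myeloid markers, which stand with Fcer1g and Tyrobp in the captured libraries, summed to 16436 to 35541 RPKM there, and their part in these levels was not tested. Cd79a, a chain of the B cell receptor complex, was at 53.4 and 56.7 RPKM in CLP, 7.43 and 0.537 in ChILP, 83.4 and 102 in PD-1+, with 129 and 120 in CCR6+.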
